A study of Mus musculus with 2 samples.

Results

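DNase-seq cuts the DNA of nuclei with the enzyme DNase I, and a footprint is a short run of bases inside accessible chromatin that was cut less than its surroundings. The regions described here are the long footprints, those of 30 bp or more, in heart tissue of male B6CASTF1/J mice, F1 hybrids between C57BL/6J and CAST/EiJ, at 14 days of age. They were chosen by length, which is itself an output of the authors' footprint caller, so length is given as a description. Replicate 1 held 22892 long footprints among 350009 footprints, and replicate 2 held 17895 among 335568. There was 1 group with 2 biological replicates, no treatment and no control. Replicate 1 is labelled as coming from 3 males, no such number is given for replicate 2, both carry the same donor label, and pooling of hearts is not stated. Values are given for each replicate, beside footprints of 7 to 15 bp, of which there were 246237 in replicate 1 and 244724 in replicate 2. Length classes were compared within each replicate. An exact two-sided sign-flip test over 2 replicates cannot go below p = 0.5, so none was made, and a difference between length classes is set beside the difference between the replicates. Whole heart tissue was used, so cardiac muscle cells, vessel cells, fibroblasts and blood cells all contribute, and fewer cells of a type and weaker binding per cell cannot be told apart.

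A protein that sits on DNA shields the bases it touches from DNase I, so the length of a footprint follows in part the size of the contact. Most transcription factors touch a short stretch of bases, but a few make much wider contacts. CTCF, which anchors chromatin loops, reads DNA with a row of zinc fingers. REST, a repressor of neuronal genes outside neurons, also reads a wide element with zinc fingers. The genes of transfer RNAs (tRNAs) are transcribed by RNA polymerase III from promoter elements inside the gene, the A box and the B box, which the factor TFIIIC binds, and TFIIIC places a second factor, TFIIIB, just upstream of the gene.

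The sequences below show the classes of long footprint that the results turn on. They are whole footprints of replicate 1 that were also long in replicate 2, read from the RefSeq assembly GRCm38.p6 (mm10), 5′ to 3′ on the strand of the match. Capitals mark the match to a consensus sequence. Coordinates are those of replicate 1.

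The first set shows REST, whose match nearly fills the footprint. The first and the second lie in an intron of Xkr6, at chr14:63681679-63681708 and chr14:63681617-63681647 on the plus strand, and the third lies in Snap25, which encodes a protein of synaptic vesicle fusion, at chr2:136714333-136714363 on the plus strand.
Xkr6 intron, first: cgcaGGCAGCACCACGGACAGCTCCcacgg
Xkr6 intron, second: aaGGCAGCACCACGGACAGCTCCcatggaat
Snap25: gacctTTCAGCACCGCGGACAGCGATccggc

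The second set shows CTCF in footprints of 30 to 34 bp, where the match lies close to the 5′ end. They lie upstream of Tnni3, which encodes cardiac troponin I, at chr7:4524391-4524421, and near Gnai2 at chr9:107612824-107612854, both on the minus strand.
Tnni3: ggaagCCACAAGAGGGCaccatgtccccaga
Gnai2: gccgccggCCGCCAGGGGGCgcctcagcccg

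The third set shows CTCF in footprints of 40 to 49 bp, which reach farther upstream of the match. They lie upstream of Prmt3 at chr7:49778220-49778264 on the plus strand, in an intron of Cdkn1a at chr17:29095625-29095670 on the minus strand, and within 1 kb of a start of Ckm, which encodes muscle creatine kinase, at chr7:19405531-19405579 on the plus strand. In the Prmt3 and Cdkn1a footprints the first run of capitals marks the letters TGCANTNCC with at most 1 mismatch. The Ckm footprint holds the same letters at the same place, also with 1 mismatch, left in lower case.
Prmt3: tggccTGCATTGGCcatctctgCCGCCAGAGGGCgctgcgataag
Cdkn1a: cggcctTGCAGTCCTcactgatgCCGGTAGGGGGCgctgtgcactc
Ckm: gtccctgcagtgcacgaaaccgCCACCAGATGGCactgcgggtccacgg

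The fourth set shows footprints inside tRNA genes, with the letters GTTCGANNC of the B box in capitals. They lie in n-TLaag4, a leucine tRNA gene, at chr7:120917565-120917603 on the plus strand, and in n-TNgtt14, an asparagine tRNA gene, at chr5:149228999-149229038 on the minus strand.
n-TLaag4: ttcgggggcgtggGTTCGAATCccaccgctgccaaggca
n-TNgtt14: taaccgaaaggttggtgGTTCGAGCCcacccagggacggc

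Long footprints made up 6.54% of all footprints in replicate 1 and 5.33% in replicate 2, with exact 95% intervals of 6.46 to 6.62% and 5.26 to 5.41%. Counts per length declined from 15 to 39 bp, then held nearly level, at 618 to 671 footprints for each length from 39 to 43 bp in replicate 1 and 407 to 477 in replicate 2. Beyond that they mostly declined again. Footprints of 30 to 34 bp were 58.1% of the long ones in replicate 1 and 62.2% in replicate 2. Those of 40 to 49 bp were 22.1% and 19.7%. Only 335 and 273 reached 50 bp, and the longest had 88 and 87 bp. At the limit itself, 3389 footprints of 30 bp stood just inside and 3592 of 29 bp just outside in replicate 1, and 2944 and 3103 in replicate 2. Intervals cover counting error only, and footprints of the same peak are not independent.

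**Figure D1:**
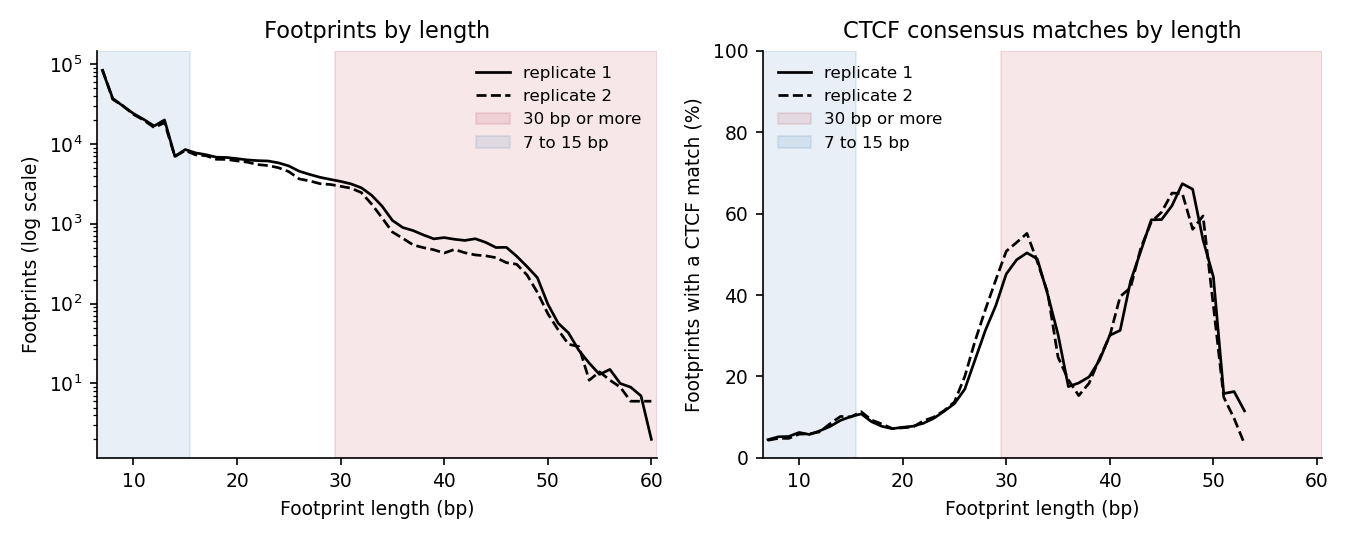
Number of footprints (left, log scale) and share of footprints with a CTCF consensus match in a 60 bp window (right) by footprint length in bp, for replicates 1 (solid) and 2 (dashed), with 30 bp or more shaded red and 7 to 15 bp shaded blue; lengths with under 20 footprints are left out on the right. The CTCF share has a first peak at 32 bp (50.4% and 55.1%), a dip at 36 to 38 bp and a second peak at 46 to 47 bp.

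Long footprints came back in the other replicate far more often than short ones. At least 50% of the length was covered by a single footprint of any length in 90.3% of the long footprints of replicate 1 and 96.2% of those of replicate 2, against 35.04% and 40.3% of the footprints of 7 to 15 bp. Footprints of 16 to 29 bp stood between, with 76.4% and 85.4%. At 29 bp the shares were 86.5% and 94.2%, and at 30 bp 89.1% and 95.8%. For the long footprints, coverage by a footprint that was itself long was 61.3% (14037 footprints) and 78.4% (14036). Of the long footprints without such a partner, 81.1% in replicate 1 and 87.3% in replicate 2 met a footprint of 16 to 29 bp, with a median length over all partners of 24 and 25 bp. More than 1 footprint of the other replicate touched 17.4% of the long footprints of replicate 1 and 8.93% of those of replicate 2. A longer footprint offers more bases to touch, but also needs more of them covered to reach 50%. The part of length in these shares was not tested. No footprint at all touched 350 of the long footprints of replicate 1 (1.53%) and 40 of those of replicate 2 (0.22%). Among the short ones it was 144154 (58.5%) and 130372 (53.3%), and among all footprints 43.8% and 40.2%. In the 14029 pairs that were long in both and covered each other by at least 50%, both edges fell on the same base in 20.7% and at least 1 edge in 66.8%. The lengths of a pair lay within 2 bp of each other in 73.4%, and the footprint of replicate 1 was the longer in 45.9% and that of replicate 2 in 27.5%.

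The length classes also differed in the peaks that held them, so the comparison was repeated within classes of peak signal, the authors' peak height, which the notes link to a depth-normalized track without stating its exact scale. In peaks with a signal above 8, 94.2% of the long footprints of replicate 1 and 97.5% of those of replicate 2 were found by a footprint of any length, against 64.4% and 67.9% of the short ones. In peaks with a signal of 1 or less the shares were 56.8% and 92.8% for long footprints and 19.6% and 29.7% for short ones. The weakest peaks were the class in which the 2 directions of the comparison differed most for long footprints. As long footprints, those of 50 bp or more were found in 86.0% and 93.0% and those of 40 to 49 bp in 76.4% and 91.7%, against 55.1% and 73.7% for those of 30 to 34 bp.

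**Figure D2:**
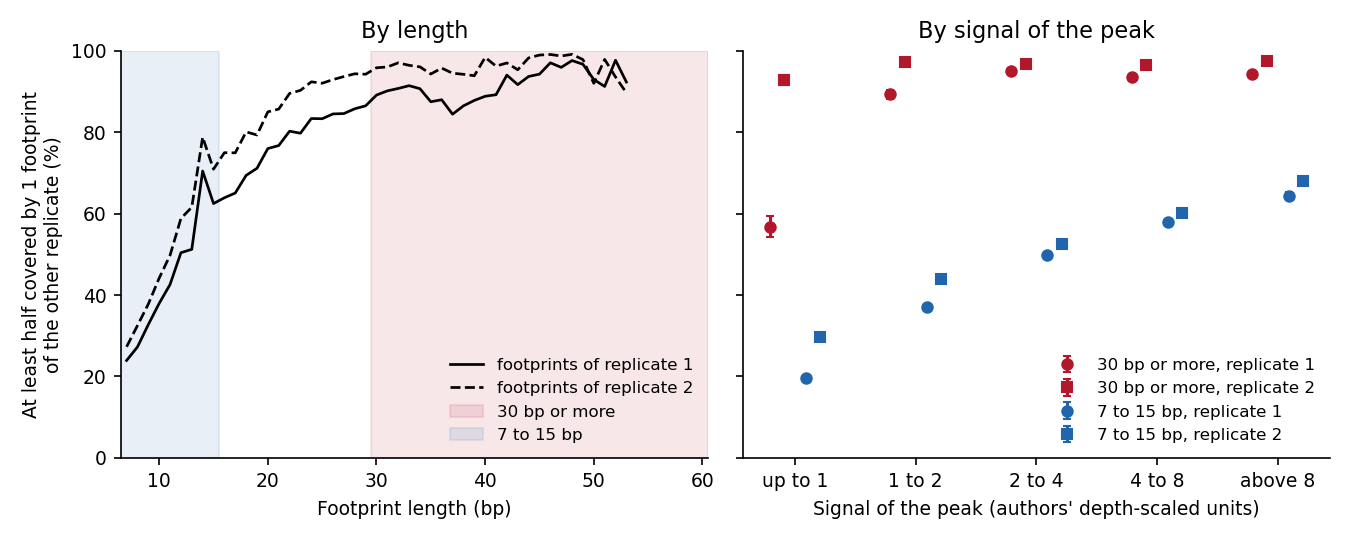
Share of footprints with at least 50% of their length covered by 1 footprint of the other replicate, by footprint length in bp (left) and by the signal of the peak that holds them (right, authors' units), for 30 bp or more (red) and 7 to 15 bp (blue); bars are exact 95% intervals, mostly smaller than the points. In each signal class the long footprints of both replicates lie above the short ones.

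CTCF was by far the most frequent named motif. A 12-letter CTCF consensus, with at most 1 mismatch and searched on both strands of the 60 bp around the middle base, matched 42.8% of the long footprints of replicate 1 (9803, exact 95% interval 42.2 to 43.5%) and 45.3% of those of replicate 2 (8108, 44.6 to 46.0%). Among footprints of 7 to 15 bp the shares were 5.68% and 5.51%, and in windows moved 200 bp to either side of long footprints that touched no footprint they were 1.53% and 1.44%. The ratio of long to short shares was 7.54 and 8.22. Within peaks that held both a long and a short footprint, with each peak weighted equally, the ratio was 5.11. With no mismatch allowed it was 12.5. Of the long footprints found long in both replicates, 50.6% had a match.

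The share with a CTCF match was not constant over long footprints. At 32 bp it reached 50.4% in replicate 1 and 55.1% in replicate 2. At 37 bp it was 18.4% and 15.3%, and at 47 bp it was 67.4% and 64.95%. The 35 to 39 bp class as a whole held a match in 22.5% and 20.6%, and the footprints of 50 bp or more in 23.6% and 19.4%. The description by length, and that of the position of the match below, was chosen after values were seen.

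Footprints of both peaks differed in where they reached around the match. In footprints of 30 to 34 bp the upstream edge lay a median of 6 bp before the match in replicate 1 and 5 bp in replicate 2, and the downstream edge 14 bp after it in both. In footprints of 40 to 49 bp the upstream edge lay 22 bp before the match and the downstream edge 11 bp after it in both replicates. In this class 95.4% and 96.2% of the matches had 16 bp or more of footprint upstream, against 3.05% and 2.32% in the 30 to 34 bp class. Footprints of 35 to 39 bp stood between, with a median of 13 and 14 bp upstream and quartiles of 6 and 19 bp in replicate 1 and 6 and 20 bp in replicate 2. The match lay wholly inside the footprint in 98.1% and 98.4% of all long footprints that had one. For footprints of 7 to 15 bp with a match it was 1.65% and 1.49%, as most are shorter than the 12 letters. Their match thus lay mostly outside or across the edge of the footprint.

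Aligned on the match, the footprints of 40 to 49 bp shared bases upstream that those of 30 to 34 bp did not. At position -12, counted from the first base of the match on its own strand, T stood in 80.6% and 81.8% of the 40 to 49 bp footprints, against 41.9% and 42.3% of the 30 to 34 bp footprints. At position -16, G stood in 77.6% and 80.4% of the longer class. The most frequent base at that position in the shorter class, also G, stood in 32.5% and 34%. The letters TGCANTNCC, with at most 1 mismatch, began 17 bp before the match in 45.2% of the 40 to 49 bp footprints with a CTCF match in replicate 1 (1139 of 2520) and in 48.7% in replicate 2 (871 of 1790). They did so in 3.21% and 3.63% of the 30 to 34 bp class and in 7.72% and 6.99% of the footprints of 7 to 15 bp with a CTCF match. At the same place moved 200 bp either way the letters stood in 0.0992% and 0.168% of the positions for the 40 to 49 bp class. The letters were read off these same footprints, so their share there is a description. An upstream module with which some CTCF sites contact further zinc fingers is known from other work on vertebrate CTCF, and the letters were not compared with it here. Over all footprints with a CTCF match, those with the upstream letters had a median length of 27 and 26 bp, and those without them 20 and 18 bp.

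**Figure D3:**
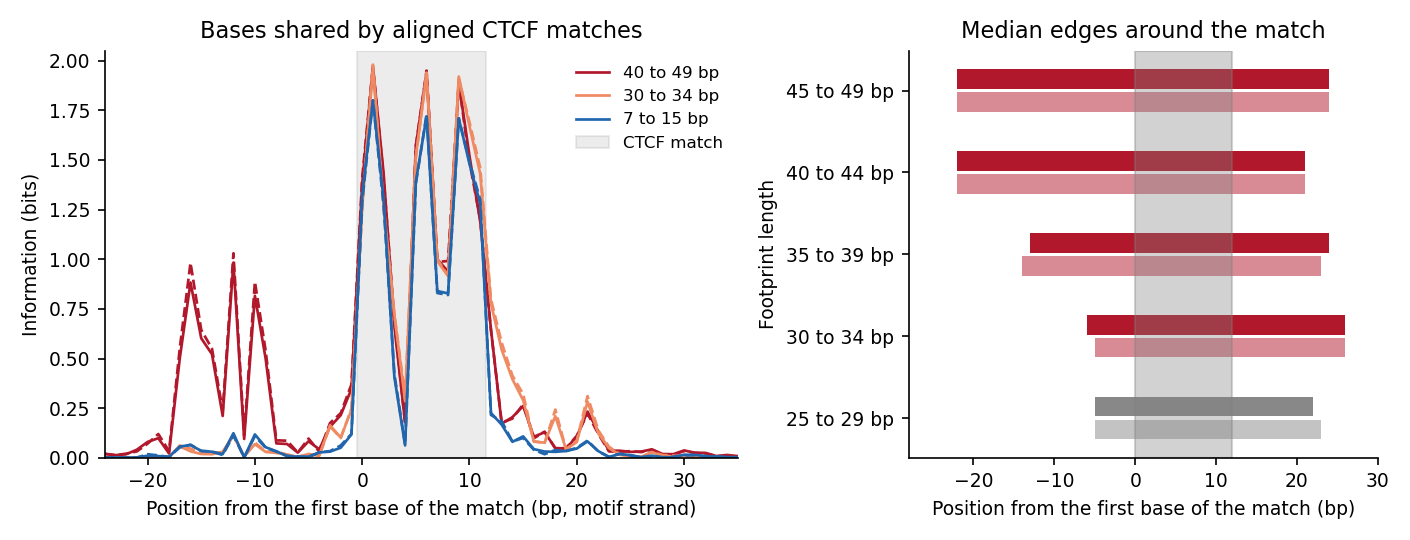
Left, information in bits at each position from 24 bp before to 35 bp after the first base of CTCF matches, for footprints of 40 to 49 bp, 30 to 34 bp and 7 to 15 bp in replicates 1 (solid) and 2 (dashed). Right, median upstream and downstream edge of footprints around the match (grey band) by length class, replicate 1 above replicate 2 in paler colour; classes of 30 bp or more are red. The upstream bases stand out in the 40 to 49 bp class, whose footprints reach 22 bp upstream of the match.

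Long footprints with and without a CTCF match lay in different places. Promoters were taken as within 1 kb of any transcript start of a protein-coding gene of GENCODE M21. Of the long footprints with a match, 11.3% in both replicates lay at promoters, 39.8% and 39.7% in introns and 42.6% and 42.8% between genes. Of those without one, 48.2% and 48.1% lay at promoters. Nearly all of those with a match lay in a peak of the larger peak set, 99.3% in both replicates, against 86.2% and 87.3% of those without. They also sat closer to the centre of the peak, at a median of 8 bp in both replicates, against 31 and 35 bp for those without a match. Their peaks were lower, with a median signal of 2.95 and 2.39, against 6.12 and 5.09. At promoters the medians were 5.255 and 4.536, against 11.4 and 9.62. Outside promoters the gap was smaller, with 2.79 and 2.26, against 3.67 and 3.14. As long footprints, those with a match were found in the other replicate in 72.5% and 87.6%, against 53.0% and 70.9% of those without a match.

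REST had the highest ratio of long to short shares among the 35 consensus sequences. Its 21-letter consensus, with at most 3 mismatches, matched 171 long footprints in replicate 1 (0.747%) and 129 in replicate 2 (0.721%), against 0.0524% and 0.0503% of the short ones, a ratio of 14.3 in both. In moved windows it matched 1 of 39745 in replicate 1 and 0 of 30799 in replicate 2, which at 3 counts allows a share of up to 0.00974%. The match lay inside the long footprint in 97.7% and 98.4%, with a median of 5 bp left on each side, and the median length of these footprints was 31 bp in both replicates. By length the share was highest at 25 to 29 bp, with 1.15% and 1.47%, and at 30 to 34 bp, with 1.20% and 1.09%, with 0.143% and 0.135% at 35 to 39 bp. Above that lay 5 and 4 matched footprints. The limit of 30 bp thus divides the REST footprints, and 337 and 355 footprints of 16 to 29 bp also had a match. Of the 170 and 129 long REST footprints without a CTCF match, 98.2% and 99.2% were found by a footprint of any length in the other replicate, 53.5% and 70.5% by a long one, and 28.8% and 31.8% lay at promoters. The 3 REST sequences printed above had a peak signal of 19.9 in replicate 1 and 13.9 in replicate 2 for the Xkr6 pair, which share 1 peak, and 6.54 and 5.83 for Snap25.

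Transfer RNA genes were another place where long footprints gathered, a class that was chosen after values were seen. Of the 403 tRNA genes on the chromosomes in the RefSeq annotation, 165 in replicate 1 and 150 in replicate 2 were touched by a long footprint, 40.9% and 37.2%, with exact 95% intervals of up to 45.9% and 42.1%. Both replicates had one at 140 genes. Footprints of 7 to 15 bp touched 84 and 104 genes, although there were more than 10 times as many of them. Of the long footprints, 0.699% and 0.816% had their middle in a tRNA gene, against 0.0321% and 0.0450% of the short ones.

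The long footprints covered the 3′ part of the gene. They began at a median of base 40 of the gene and ended at base 76 in both replicates, where the median gene has 72 bp, and their median length was 36 bp. The middle base lay between bases 45 and 65 in 85.0% and 85.6%. The B box letters GTTCGANNC were found in the 60 bp window of 78.8% and 79.5% of them, against 62.03% of all 403 genes over their whole length, and 0.357% and 0.399% of moved windows. Footprints of 7 to 15 bp in any of the 403 genes had a median middle at base 10 in replicate 1 and 11 in replicate 2, near the start of the gene, and 24.1% and 30% of them had it between bases 45 and 65. The median signal of the peaks was 5.81 and 4.26 for the long footprints and 3.43 and 2.34 for the short ones. The same footprint was long in the other replicate in 84.4% and 92.5%. The 36 bases at the middle occurred more than once in the genome in 42.5% of the long footprints in tRNA genes in both replicates, against 1.96% and 2.045% of all long footprints, and the part of read mapping in this class was not tested.

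A second long footprint lay upstream of many of the same genes. Between 60 and 6 bp before the gene, a long footprint had its middle at 129 genes in replicate 1 and 112 in replicate 2, 32.0% and 27.8%, and 107 genes had one in both. Its median first base was -48 in replicate 1 and -48.5 in replicate 2, its median last base was -11 and -11.5, with a median length of 39 and 38 bp. Of the genes with a long footprint inside, 66.9% in replicate 1 (107 of 160) and 58.9% in replicate 2 (86 of 146) also had the upstream one, and 77 genes had both in both replicates. Footprints of 7 to 15 bp had their middle in that stretch at 49 and 51 genes. At base 20 of the gene no long footprint was found in either replicate. Of the 403 genes, 181 were touched by no footprint of any length in either replicate.

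**Figure D4:**
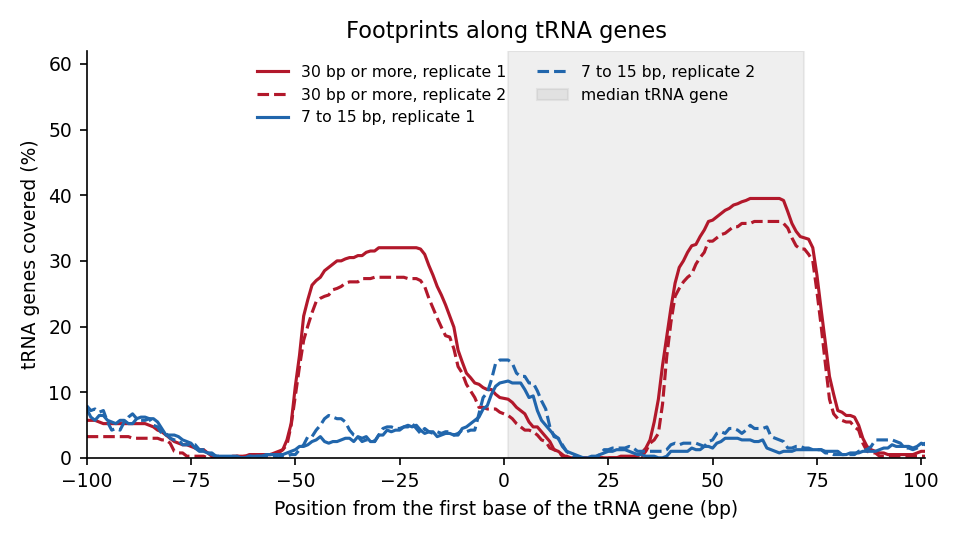
Percentage of the 403 tRNA genes covered at each position around the first base of the gene, by footprints of 30 bp or more (red) and of 7 to 15 bp (blue) in replicates 1 (solid) and 2 (dashed); the grey band is the median gene. Long footprints form one block upstream, over 129 and 111 genes at base -30, and another over the 3′ part of the gene, over 159 and 145 genes at base 60.

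Other motifs were more or less frequent at long footprints. Of the 35 consensus sequences, 7 had a ratio of long to short shares of at least 1.5 in both replicates and 7 a ratio of at most 1/1.5, a limit chosen for counting. Beside CTCF and REST, the higher group held KAISO, NRF1, YY1, CREB/ATF and ZNF143. NRF1, a regulator of genes for mitochondria and of many housekeeping promoters, matched 1.36% and 1.00% of long footprints, against 0.402% and 0.449% of short ones and 0.0327% and 0.0292% of moved windows. Its share was higher still at 20 to 24 bp, with 3.02% and 3.73%, and in long footprints the match left a median of 14 and 10 bp on its sides in replicate 1 and 11 and 14 bp in replicate 2. The CREB/ATF core TGACGT was present in 1.99% and 1.91% of long footprints, against 1.17% and 1.13% of short ones. It was in 0.684% and 0.682% of moved windows. KAISO, which also reads methylated CpG sites, had matches in 25 and 23 long footprints, 0.109% and 0.129%, against 0.0349% and 0.0401% of short ones and 0.0176% and 0.0130% of moved windows. Footprints of 16 to 29 bp held KAISO in 0.163% and 0.175% and the CREB/ATF core in 1.97% and 2.07%.

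The YY1 letters ATGGCG can form part of a CTCF match, and 572 of 896 and 502 of 763 long footprints with them also had a CTCF match, against 568 of 4309 and 553 of 4610 short ones. With footprints that had a CTCF match left out, YY1 was in 2.48% and 2.67% of long footprints, against 1.61% and 1.75% of short ones, and 1.02% and 0.938% of all moved windows had the letters. With those footprints left out, 8 consensus sequences reached the ratio of 1.5, the CCAAT box of NFY and the site of NFI being added. The letters CCAAT were then in 11.51% and 12.3% of long footprints, against 7.38% and 7.06% of short ones. Moved windows held them in 6.47% and 6.46%. NFI was in 1.17% and 0.909% of long footprints without a CTCF match, against 0.626% and 0.552% of such short ones. With all footprints kept, those of 16 to 29 bp held NFI most often, in 2.63% and 2.64%, against 0.699% and 0.537% of long ones.

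The lower group held MEF2, GATA, ERR, GRE, AP-1, PU.1 and an E-box. With footprints that had a CTCF match left out it held 5, without GATA, at ratios of 0.491 and 0.670, and PU.1, at 0.621 and 0.673. MEF2, a regulator of muscle genes, matched 0.210% and 0.196% of long footprints, against 0.577% and 0.456% of short ones, and 0.667% and 0.675% of moved windows. The GATA letters AGATAA were in 0.944% and 1.00% of long footprints, against 1.81% and 1.58% of short ones. GATA4, a regulator of heart muscle genes, reads such letters, and moved windows held them more often than either length class, in 2.70% and 2.79%. The E-box letters CAGCTG were in 3.85% and 3.69% of long footprints, against 7.37% and 7.07% of short ones, and in 3.08% and 3.01% of moved windows. AP-1, with the letters TGANTCA, was in 1.12% and 1.07% of long footprints, against 2.28% and 2.051% of short ones, and 1.48% and 1.43% in moved windows. No consensus matched 23.8% and 23.5% of the long footprints and 44.5% and 44.7% of the short ones. Among long footprints without a CTCF match the shares were 41.6% and 42.9%.

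**Figure D5:**
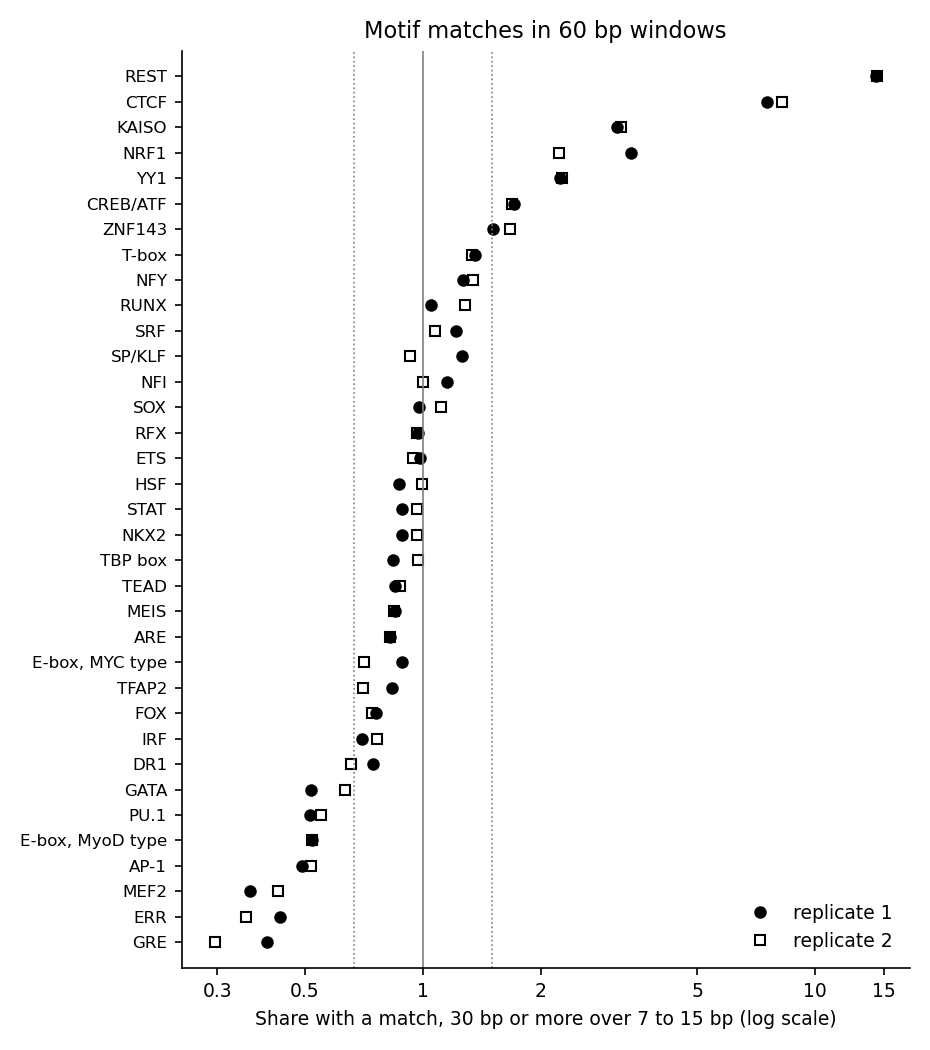
Share of footprints of 30 bp or more with a match over the share of footprints of 7 to 15 bp (log scale), for 35 consensus sequences searched in 60 bp windows, in replicates 1 (filled) and 2 (open); dotted lines mark a ratio of 1.5 and its inverse. REST (14.3 in both) and CTCF (7.54 and 8.22) stand apart at the top, and MEF2, ERR and GRE are lowest.

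In GC content within 60 bp windows and in the total share at promoters, long and short footprints did not differ in a steady direction. Within 60 bp windows the GC content was 56.9% and 56.8% at long footprints, against 56.3% and 57.8% at short ones, higher in replicate 1 and lower in replicate 2. Over the bases of the footprint itself, GC content was lower at long footprints in both replicates, 59.5% and 59.3%, against 60.4% and 61.7%. Promoters held 32.4% and 31.4% of long footprints, against 31.3% and 36.3% of short ones, with opposite signs in the replicates. With footprints that had a CTCF match left out, long footprints lay at promoters more often than short ones in both replicates, 48.2% and 48.1%, against 32.2% and 37.2%. By length, promoters held 28.3% and 27.6% of the 30 to 34 bp class, 43.1% and 43.8% of the 35 to 39 bp class, 32.8% and 31.6% of the 40 to 49 bp class, and 55.8% and 51.6% of those of 50 bp or more.

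Within 1 kb of a start, long footprints concentrated just upstream. Of the long footprints there, 57.6% and 57.9% had their middle in the 200 bp before the start, against 38.0% and 36.6% of the short ones. In the 200 bp after the start the shares were 16.9% and 16.1%, against 28.1% and 30.1%. Long footprints without a CTCF match had 60.6% and 61.2% in the 200 bp before the start.

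Long footprints were in stronger peaks. The median signal of the peak was 4.16 in replicate 1 and 3.38 in replicate 2, against 1.09 and 1.03 for footprints of 7 to 15 bp, a ratio of 3.81 and 3.30. At promoters the medians were 10.4 and 8.83, against 3.01 and 2.89, and elsewhere 3.07 and 2.54, against 0.879 and 0.800. In the tenth of peaks with the highest signal 47.2% and 38.6% held a long footprint, and in the peaks below the median signal 0.914% and 1.14%. The larger peak set held 91.8% and 92.7% of long footprints, against 85.2% and 83.3% of short ones. At the middle base of the footprint the false discovery rate of cleavage deposited by the authors was under 0.001 in 99.2% and 98.7% of long footprints, against 77.7% and 76.3% of short ones. That rate and the footprints come from the same alignment, so they are not independent, and the part of length in it was not tested. Long footprints lay a median of 16 and 15 bp from the centre of the peak, against 45 and 47 bp. The part of sequencing depth in these values was not tested.

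The 10 long footprints with the highest mean log2 signal over both replicates, 1 per peak, mostly lay at promoters, where 7 of the 10 were found. The highest by that mean, at chr8:20424816-20424851 between genes, had 36 bp in both replicates and a signal of 45.2 and 35.97. The peak also held a CTCF footprint of 45 and 46 bp, whose middle 36 bases occurred 4 times in the genome. The second, 170 bp upstream of Nup107, which encodes a nuclear pore protein, had 35 bp in both replicates and a signal of 46.2 and 34.6. Another lay 214 bp upstream of Nup50, also a nuclear pore gene, with 49 and 50 bp and a signal of 32.8 and 28.1, and its sequence holds the NRF1 match in capitals. Others in this group lay upstream of Bahcc1, Mplkip, Fbh1 and Rragc, with lengths of 36 to 58 bp in replicate 1. Rragc encodes a small GTPase of amino acid sensing. The group also held an exon footprint at chr16:35981731-35981764 (34 bp in both replicates) and one between genes at chr6:49236510-49236539 (30 bp in both). The middle 36 bases of the chr6 footprint occurred 2 times in the genome, and those of the chr16 footprint 1 time. Copies were counted over the chromosomes of the assembly, and the part of read mapping in the signal of this group was not tested. The sequences below show NRF1 matches in capitals, in that Nup50 footprint and in a neighbouring footprint of the Nup107 peak. The Nup107 one lies at chr10:117792797-117792829, and the Nup50 footprint lies at chr15:84923173-84923221, both on the plus strand.
Nup50: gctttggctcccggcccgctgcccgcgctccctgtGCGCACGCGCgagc
Nup107: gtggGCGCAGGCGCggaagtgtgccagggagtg

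The longest long footprints shared an arrangement around CTCF. Of the 5 longest found in both replicates, 4 had a CTCF match close to the downstream edge, with 58 to 61 bp of footprint upstream and 12 to 18 bp downstream. They lay in an exon of Pola2 at chr19:5956827-5956914 on the minus strand (88 and 87 bp), in an intron of Tgfbr3 at chr5:107287361-107287446 on the minus strand (86 bp in both), and between genes at chr16:37684806-37684889 (84 and 85 bp) and chr14:61331420-61331505 (86 and 80 bp), both on the plus strand. Their peaks had signals of 4.75 to 8.38 in replicate 1 and 4.59 to 6.995 in replicate 2. The fifth, of 81 bp in both replicates at chr14:104715796-104715876, had no CTCF match in the 60 bp window, and its middle 36 bases occurred 7 times in the genome. The window is shorter than these footprints, so a match nearer to either edge could not be found. The distances to the edges are limited by that. All 4 footprints with a match are printed to show how far the shielded stretch extends before the match.
Pola2: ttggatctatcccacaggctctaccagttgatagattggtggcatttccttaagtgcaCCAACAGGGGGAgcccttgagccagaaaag
Tgfbr3: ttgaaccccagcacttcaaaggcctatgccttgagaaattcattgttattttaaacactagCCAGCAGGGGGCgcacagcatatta
chr16 region: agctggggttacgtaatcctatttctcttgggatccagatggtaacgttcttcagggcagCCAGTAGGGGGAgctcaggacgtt
chr14 region: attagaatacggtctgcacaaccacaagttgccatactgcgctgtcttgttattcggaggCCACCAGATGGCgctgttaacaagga
Footprints of 60 bp or more were few, 38 in replicate 1 and 34 in replicate 2, of which 9 and 8 had a CTCF match in the 60 bp window.

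Long footprints at the promoters of heart genes were counted beside those of all genes. Of 25 cardiac muscle genes, 5 had a long footprint found in both replicates, a share whose exact interval of 6.83 to 40.7% includes the 16.6% of all 21938 protein-coding genes (3651 genes). Of 22 genes for cardiac transcription factors, 5 had one, of 18 endothelial genes 2, of 12 smooth muscle and pericyte genes 1, and of 12 fibroblast genes 0. Of 12 leukocyte genes 1 had one, of 12 neuronal genes 2, and of 12 hepatocyte genes 0, and a count of 0 of 12 allows a share of up to 26.5% by its exact interval. Footprints of any length were found in each replicate at the promoters of 22 of the 25 cardiac muscle genes and 2 of the 12 hepatocyte genes, against 67.2% of all protein-coding genes. The leukocyte list had 6 of 12 and the neuronal list 9 of 12.

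The named heart genes with a long footprint differed in what the footprint held. At Atp2a2, which encodes the calcium pump of the sarcoplasmic reticulum, the footprint lay 223 bp upstream of the start with 34 and 38 bp and a signal of 11.8 and 13.2, and no consensus matched. At Ckm it had 49 bp in both replicates, a CTCF match and a signal of 4.66 and 4.06. At Tnni3 it had 31 and 32 bp, a CTCF match and a signal of 2.67 and 1.49, and it lies inside the neighbouring gene Dnaaf3. At Myom1 the footprint had 31 and 37 bp and a signal of 10.3 and 8.95. Its nearest start was that of another gene, Myl12b, 130 bp away. At Myl2 it had 30 bp in both replicates and a signal of 2.16 and 1.695. Esrra, which encodes a nuclear receptor for mitochondrial genes, had the strongest of the transcription factor list, with 37 and 33 bp, the GGGCGG letters of SP/KLF, which 3.03% and 2.68% of moved windows held, and a signal of 27.9 and 19.9. Hey2, a repressor in heart development, had 34 bp in both and a signal of 17.8 and 17.1. At Mef2d it had 47 and 45 bp, a CTCF match that crosses its edge and a signal of 12.8 and 12.9, and at Srf 32 and 30 bp, a CTCF match and a signal of 1.16 and 1.19. The neuronal genes were Snap25, with the REST match printed above, and Rbfox3, with a CTCF match, 50 and 49 bp and a signal of 3.67 and 2.66. The endothelial gene Ets1 had 31 and 30 bp with a signal of 18.1 and 14.4.

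Repeated sequence and chromosomes were also compared. The middle 36 bases occurred more than once in the genome in 1.96% and 2.045% of long footprints, against 1.20% and 1.23% of short ones, and in 6.27% and 6.96% of those of 50 bp or more. Repeats marked in the reference covered at least 50% of the window in 11.8% and 11.7% of the 40 to 49 bp class, against 5.41% and 4.88% of the footprints of 7 to 15 bp. Of the 40 to 49 bp footprints with a CTCF match, 17.1% and 16.5% lay in such repeats, against 5.53% and 4.60% of those of 30 to 34 bp. Footprints of 7 to 15 bp with a CTCF match stood between, with 11.95% and 9.27%. By chromosome, long footprints were 7.15% of all footprints on chromosome 11 in replicate 1 and 5.76% in replicate 2. On chromosome X they were 5.39% and 4.97%.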

How the data were processed

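For each of 2 heart replicates the authors deposited footprints, peak sets and a list of bases with a low false discovery rate (FDR). All are in mm10 coordinates and come from the alignment of that replicate alone, per the submitters' processing notes. Depth is unknown, since no read total was at hand, and callers, versions and the treatment of CAST reads are not stated. The peak signal is the authors' peak height, which the submitters' processing notes link to a depth-normalized track without its exact scaling. The deposited p-value column is an FDR per run of bases, listed under 0.05. Footprint positions and lengths are as deposited by the authors, and another column, 0.01 throughout, was not used. Both samples share a donor label, so the difference between them may be partly technical.

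Footprints counted as found where at least 50% of their length was covered by 1 footprint of the other replicate. Place was taken from GENCODE M21 by the middle base, promoters reaching 1 kb to each side of any transcript start of a protein-coding gene. The larger peak set was the main one. The 35 consensus sequences were searched on both strands of 60 bp windows, and moved windows lay 200 bp away and touched no footprint. Repeats of 36 bases were counted over the chromosomes of GRCm38.p6, the same assembly as mm10. Intervals are exact binomial 95% intervals. Named regions were the 10 highest in signal, the 5 longest, 2 for each of the 3 motifs with the highest ratio among those with at least 100 long matches, and up to 4 genes of each of 8 lists. Sequences in untranslated regions are not printed. The members and lists were chosen with earlier results of these data known, and the upstream CTCF letters, tRNA genes, the Gnai2, Prmt3 and Cdkn1a footprints and values by length class were added after values were seen. Overlaps and motif searches were tested on simulated data. Alternatives changed the length limit, the comparison class, overlap, peak set, windows and replicates. Motif searches ran in numba 0.67.0, intervals in scipy 1.17.1, tables in pandas 2.3.3 with numpy 2.4.6, and plots in matplotlib 3.10.9, under Python 3.11.15. Reads and alleles were not analysed here.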

Additional observations from a re-analysis of the deposited data

How the results depend on the processing

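Each value is the mean of the 2 replicates. Alternatives that moved a value by less than the SD between replicates are not listed one by one. The CTCF ratio of long to short shares, 7.88, was 5.86 in 100 bp windows, 21.8 in the footprint with 10 bp on each side, where the longer footprint has the longer window, 3.37 against footprints of 16 to 29 bp, 8.64 from 40 bp, 8.37 without promoters and 5.11 within peaks that hold both. It was 12.5 without a mismatch. That alternative, and leaving out footprints with a CTCF match, were chosen after seeing the data. The GC difference in 60 bp windows was -0.202 percentage points (long minus short). It changed sign to 0.845 without CTCF matches, 0.720 without promoters and 3.66 within peaks that hold both. It was -2.52 against 16 to 29 bp, -0.983 without replicate 1 and 0.579 without replicate 2. The promoter difference, -1.88 points, was -9.41 against 16 to 29 bp and 13.5 without CTCF matches, -4.85 without replicate 1 and 1.10 without replicate 2. The difference in the share inside peaks, 8.04 points, was 3.01 against 16 to 29 bp, 3.09 without CTCF matches and 28.02 in the smaller peak set. The signal ratio, 3.55, was 1.48 against 16 to 29 bp, 5.24 without CTCF matches, 3.98 from 40 bp and 2.50 in the smaller peak set. The 7 motifs more frequent at long footprints became 2 against 16 to 29 bp, 23 in the footprint with 10 bp on each side and 3 without promoters, and the 7 less frequent became 0 with 10 bp on each side. The share of long footprints, 5.94%, was 7.79% inside the smaller peak set and 3.68% without CTCF matches. The share found long in the other replicate, 69.9%, was 62.2% at 90% of the length, 66.6% from 40 bp and 61.9% without CTCF matches. These changes are smaller than the SD of 12.1 points, which is wide, as the replicates alone gave 61.3% and 78.4%. Leaving out 1 of 2 replicates cannot move a mean by more than their SD, so it shows no stability. The cause of these changes was not tested. Within peaks that hold both classes the signal ratio has no value, since both lie in the same peaks.

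Limits: with 2 replicates of 1 group no test was made. A match to a consensus is not a bound factor, and a missing match says nothing of the factor. Lengths come from a caller whose settings are not stated. Read totals were not at hand, so how far depth limits the calling of long footprints is unknown.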
